A study of Homo sapiens with 16 samples.

Results

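The 10 genes described here are transcription factors of the dorsal neural tube and the neural crest: PAX3, PAX7, ZIC1, ZIC2, MSX1, MSX2, TFAP2A, TFAP2B, FOXD3 and SNAI2. They were taken by name from the 57736 genes of the count table, each matched 1 Ensembl gene, and all 10 passed the filter on low counts that left 24249 genes for testing. H9, an established human embryonic stem cell line, was carried through cortical differentiation by dual SMAD inhibition, and RNA was sequenced on D0 (undifferentiated cells), D12, D30 and D70, with 2 libraries per arm and stage and 16 in all. The control arm received DMSO, the solvent. The treated arm received 40 µM TMG (Thiamet-G), an inhibitor of O-GlcNAcase, the enzyme that removes O-GlcNAc from proteins, so that the comparison asks what sustained O-GlcNAcylation does to gene expression. TMG was present from the undifferentiated cells on, so the D0 comparison already holds treated and control cells. All groups come from this 1 cell line, and the 2 libraries of a group are biological replicates by the study's methods. Libraries held between 10334908 and 19836878 counts.

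Neural plate cells that meet the surface ectoderm form the neural plate border, from which the neural crest and the dorsal neural tube arise under BMP and WNT signals. The border carries MSX, ZIC, PAX3, PAX7 and TFAP2A, and the crest that forms there adds FOXD3 and SNAI2 before its cells leave the neural tube. Cortical differentiation is meant to give telencephalic progenitors and glutamatergic neurons, and dorsal and crest factors in such cultures mark cells at or near the border fate or its derivatives. Several members also have other known sites: ZIC2 and FOXD3 in pluripotent cells, PAX3 and PAX7 in muscle progenitors, TFAP2A and TFAP2B in surface ectoderm, MSX1, MSX2 and SNAI2 in mesenchyme.

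The promoters of PAX3, ZIC1, MSX1 and MSX2 are printed because these 4 genes rose together from D0 to D12 in the control arm, as given further on. Each is the 250 bases before the start of the gene, 5′ to 3′ on the gene's strand, from RefSeq on GRCh38.p14, and capitals mark CCAAT on either strand.
PAX3 (chr2:222298999-222299248, minus strand): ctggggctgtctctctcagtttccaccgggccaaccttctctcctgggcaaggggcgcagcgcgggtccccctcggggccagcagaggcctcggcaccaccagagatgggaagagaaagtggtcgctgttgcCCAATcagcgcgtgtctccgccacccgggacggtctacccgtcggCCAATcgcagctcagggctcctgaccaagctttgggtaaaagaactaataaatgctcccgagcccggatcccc
ZIC1 (chr3:147409115-147409364, plus strand): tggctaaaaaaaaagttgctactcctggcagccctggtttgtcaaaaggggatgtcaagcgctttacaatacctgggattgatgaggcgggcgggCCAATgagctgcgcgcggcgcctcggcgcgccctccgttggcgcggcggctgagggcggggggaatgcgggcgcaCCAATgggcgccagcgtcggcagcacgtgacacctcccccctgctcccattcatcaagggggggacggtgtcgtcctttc
MSX1 (chr4:4859415-4859664, plus strand): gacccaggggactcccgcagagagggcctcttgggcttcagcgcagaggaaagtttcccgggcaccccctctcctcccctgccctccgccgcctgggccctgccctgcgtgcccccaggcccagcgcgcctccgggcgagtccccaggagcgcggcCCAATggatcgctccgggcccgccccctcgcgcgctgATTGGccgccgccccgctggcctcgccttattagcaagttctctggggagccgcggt
MSX2 (chr5:174724332-174724581, plus strand): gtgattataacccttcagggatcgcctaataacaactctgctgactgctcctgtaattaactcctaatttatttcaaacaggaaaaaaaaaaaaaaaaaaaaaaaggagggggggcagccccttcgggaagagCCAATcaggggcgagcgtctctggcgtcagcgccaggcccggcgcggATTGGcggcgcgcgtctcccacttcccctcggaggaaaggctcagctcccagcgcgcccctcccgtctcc

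Each of these 4 windows held 2 matches to CCAAT. Of all 35116 promoters of the same length in the RefSeq table, 9.53% held at least 2 matches and 32% at least 1, and the motif was chosen after the sequences had been read. The table gave 10 promoters for 9 members, 2 of them for TFAP2A, and none was entered for SNAI2. At least 1 match was present in the promoters of PAX3, PAX7, ZIC1, MSX1, MSX2 and TFAP2B. Searches on both strands for GCCNNNGGC, CAGGTG and CTTTGAT, short forms of AP-2, Snail and TCF/LEF motifs, found none of them in the 10 windows, against 19.8%, 17.5% and 2.26% of all promoters. The homeodomain core CAATTA was found in the window of TFAP2B alone, against 6.7% of all promoters, where it shares bases with the CCAAT match. These matches describe letters only.

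On GRCh37, the build of the count table, PAX3 (ENSG00000135903) lies at chr2:223064606-223163717 and PAX7 (ENSG00000009709) at chr1:18957340-19075360. ZIC1 (ENSG00000152977) at chr3:147111209-147228080 overlaps ZIC4 on the opposite strand, and ZIC2 (ENSG00000043355) lies at chr13:100634038-100639019. MSX1 (ENSG00000163132) and MSX2 (ENSG00000120149) lie at chr4:4861392-4865663 and chr5:174151585-174157899, and MSX2 has the pseudogene MSX2P1. TFAP2A (ENSG00000137203) and TFAP2B (ENSG00000008196) lie on 1 chromosome, at chr6:10393419-10419892 and chr6:50786436-50815332. FOXD3 (ENSG00000187140) is a gene of 1 exon at chr1:63788238-63790799, and SNAI2 is ENSG00000019549. PAX3, ZIC1, TFAP2A, FOXD3 and SNAI2 have a gene on the opposite strand. The library kit named in the labels is not described as keeping the strand. Reads from bases shared with the antisense partner therefore cannot be told apart by strand. How far the exons of these genes overlap was not measured.

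Values per library are CPM (counts scaled to the TMM-adjusted size of the library), given as replicate 1 and then replicate 2. Arms were taken from the sample titles. The treatment entry of 8 libraries contradicts the title, and by those entries the arms of a stage would be its replicates. In markers of other cell types 4 libraries stood apart, namely replicate 2 of TMG on D12, replicate 2 of TMG on D30, and replicate 2 of both arms on D70. The summed level of 8 mesenchyme genes (3 collagens, PDGFRA, PRRX1, LUM, DCN and POSTN) was 30481 CPM in TMG replicate 2 of D30 against 4398 to 5668 in the other libraries of that stage. On D70 it was 45797 in DMSO replicate 2 and 60115 in TMG replicate 2, against 7484 and 3917 in the replicate 1 libraries. The sum of 7 placode and surface ectoderm genes on D70 was 515 and 2597 CPM in the replicate 2 libraries, led by the keratin gene KRT5, against 22.6 and 52 in replicate 1. TMG replicate 2 of D12 held the highest crest markers of its stage, SOX10 at 185 CPM against 44.7 to 59.2 in the other 3 libraries. The telencephalon markers PAX6 and OTX2 were high from D12 on, except in TMG replicate 2 of D70 at 2.5 and 0.0925 CPM. Of the 5 muscle progenitor markers, the defining genes MYF5 and MYOD1 were at most 0.56 CPM in every library, MYOG reached 2.21 and TCF15 6.98 CPM. MEOX1 reached 31.3 CPM, in TMG replicate 2 of D30, and rose from D0 to D12 in DMSO (5.54 ± 1.27, edgeR adjusted p = 0.016). The part of these differences in the results below was not tested, and fewer cells of a type cannot be told apart from less RNA per cell in such bulk samples.

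From D0 to D12 in DMSO, 4 of the 10 genes rose past a false discovery rate of 5% and none fell, where 6.97% of all genes tested were called higher and 9.71% lower. The genes that rose were PAX3, MSX2, MSX1 and ZIC1, with 102-fold, 27.1-fold, 11.4-fold and 10.3-fold higher estimates. In TMG the same step raised 5, where 7.24% of all genes were called higher, and the call added was TFAP2A. FOXD3 had the lowest CPM per kb of the 10 after D12, with 0 or 2 counts per DMSO library on D30 and D70.

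PAX3, a paired-box factor of the dorsal neural tube and crest, stood at 1.05 and 4.06 CPM in the DMSO libraries of D0, 217 and 300 at D12, 48.4 and 79.6 at D30 and 5.85 and 9.9 on D70. PAX3 was thus highest on D12, and the ranges of the 4 stages did not overlap. The rise to D12 was 6.67 ± 1.09 (log2 fold change ± SE, edgeR quasi-likelihood test, adjusted p = 0.00377, n = 2 per group), and the fall from D12 to D70 was -5.04 ± 1.00 (adjusted p = 0.0127 by edgeR). As single libraries were left out, the rise ranged from 6.02 without D0 replicate 1 to 7.93 without D0 replicate 2 and kept its call. The fall lost its call without D12 replicate 1 (-5.26, adjusted p = 0.0531 by edgeR), D12 replicate 2 (-4.79, 0.0568) or D70 replicate 1 (-4.71, 0.0747). In TMG, PAX3 was at 4.67 and 3.92 CPM on D0 and 362 and 375 at D12, a rise of 6.42 ± 1.07 (edgeR adjusted p = 0.00404). That call was lost without D0 TMG replicate 1 (6.55, edgeR adjusted p = 0.051) or replicate 2 (6.30, 0.0539).

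PAX7 is the paralog of PAX3, and its change from D0 to D12 did not pass (0.98 ± 0.66, edgeR adjusted p = 0.334). Its DMSO libraries held 10.1 and 16.9 CPM on D0, 22 and 31.4 at D12, 6.95 and 11.1 at D30, and 0.129 and 1.29 on D70. Both D12 libraries were thus above both D0 libraries and the D70 libraries were lowest, with the D0 and D30 ranges overlapping. The fall from D12 to D70 was -5.28 ± 0.82 and that from D0 to D70 was -4.29 ± 0.80 (edgeR adjusted p = 0.00481 and 0.00308). Both kept their calls as libraries were left out, and both were larger without D70 replicate 2, at -7.62 and -6.62. In TMG the levels were 15.2 and 15.4 CPM on D0, 29 and 31.1 at D12, 10.4 and 4.26 at D30 and 0.632 and 0.185 on D70.

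ZIC1 and ZIC2, zinc finger factors of the neural plate border and dorsal neural tube, followed different courses. ZIC1 was at 23 and 45.2 CPM in the DMSO libraries of D0, 306 and 395 at D12, 271 and 462 at D30, and 158 and 42.3 on D70. It rose to D12 by 3.36 ± 0.84 and stood at a similar level on D30, 3.43 ± 0.84 above D0 (edgeR adjusted p = 0.0222 and 0.0117). The call on D12 was lost without any 1 of the 4 libraries compared, with edgeR adjusted p between 0.067 and 0.145, and with no filter on low counts (adjusted p = 0.0794). The call on D30 was lost without D0 replicate 1 (3.07, edgeR adjusted p = 0.0871) or D30 replicate 2 (2.99, 0.0552). In TMG, ZIC1 rose from 34.5 and 36.4 CPM on D0 to 628 and 429 on D12 (3.90 ± 0.86, edgeR adjusted p = 0.013). That call was lost without D0 TMG replicate 1 (3.86, edgeR adjusted p = 0.108), D0 TMG replicate 2 (3.93, 0.106) or D12 TMG replicate 1 (3.59, 0.0668), and with no filter (0.0516).

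ZIC2 was already high in undifferentiated cells. Its DMSO libraries held 310 and 306 CPM on D0, 324 and 447 at D12, 280 and 391 at D30 and 195 and 76.8 on D70. No step of ZIC2 passed in DMSO, and its lowest level of all was the 12 CPM of TMG replicate 2 on D70, against 205 in TMG replicate 1. Per kb of transcript, which allows genes to be compared, ZIC2 was the highest of the 10 on D12 in DMSO, at 130 ± 29.5 CPM per kb (mean ± SD, n = 2). PAX3 at 77 ± 17.4 and ZIC1 at 66.7 ± 12 followed, and the difference between them was within their spread. MSX2 at 18.5 ± 7.47 and MSX1 at 17.8 ± 9 came next, and TFAP2A, TFAP2B, FOXD3, SNAI2 and PAX7 lay between 4.3 and 7.13 CPM per kb.

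**Figure D1:**
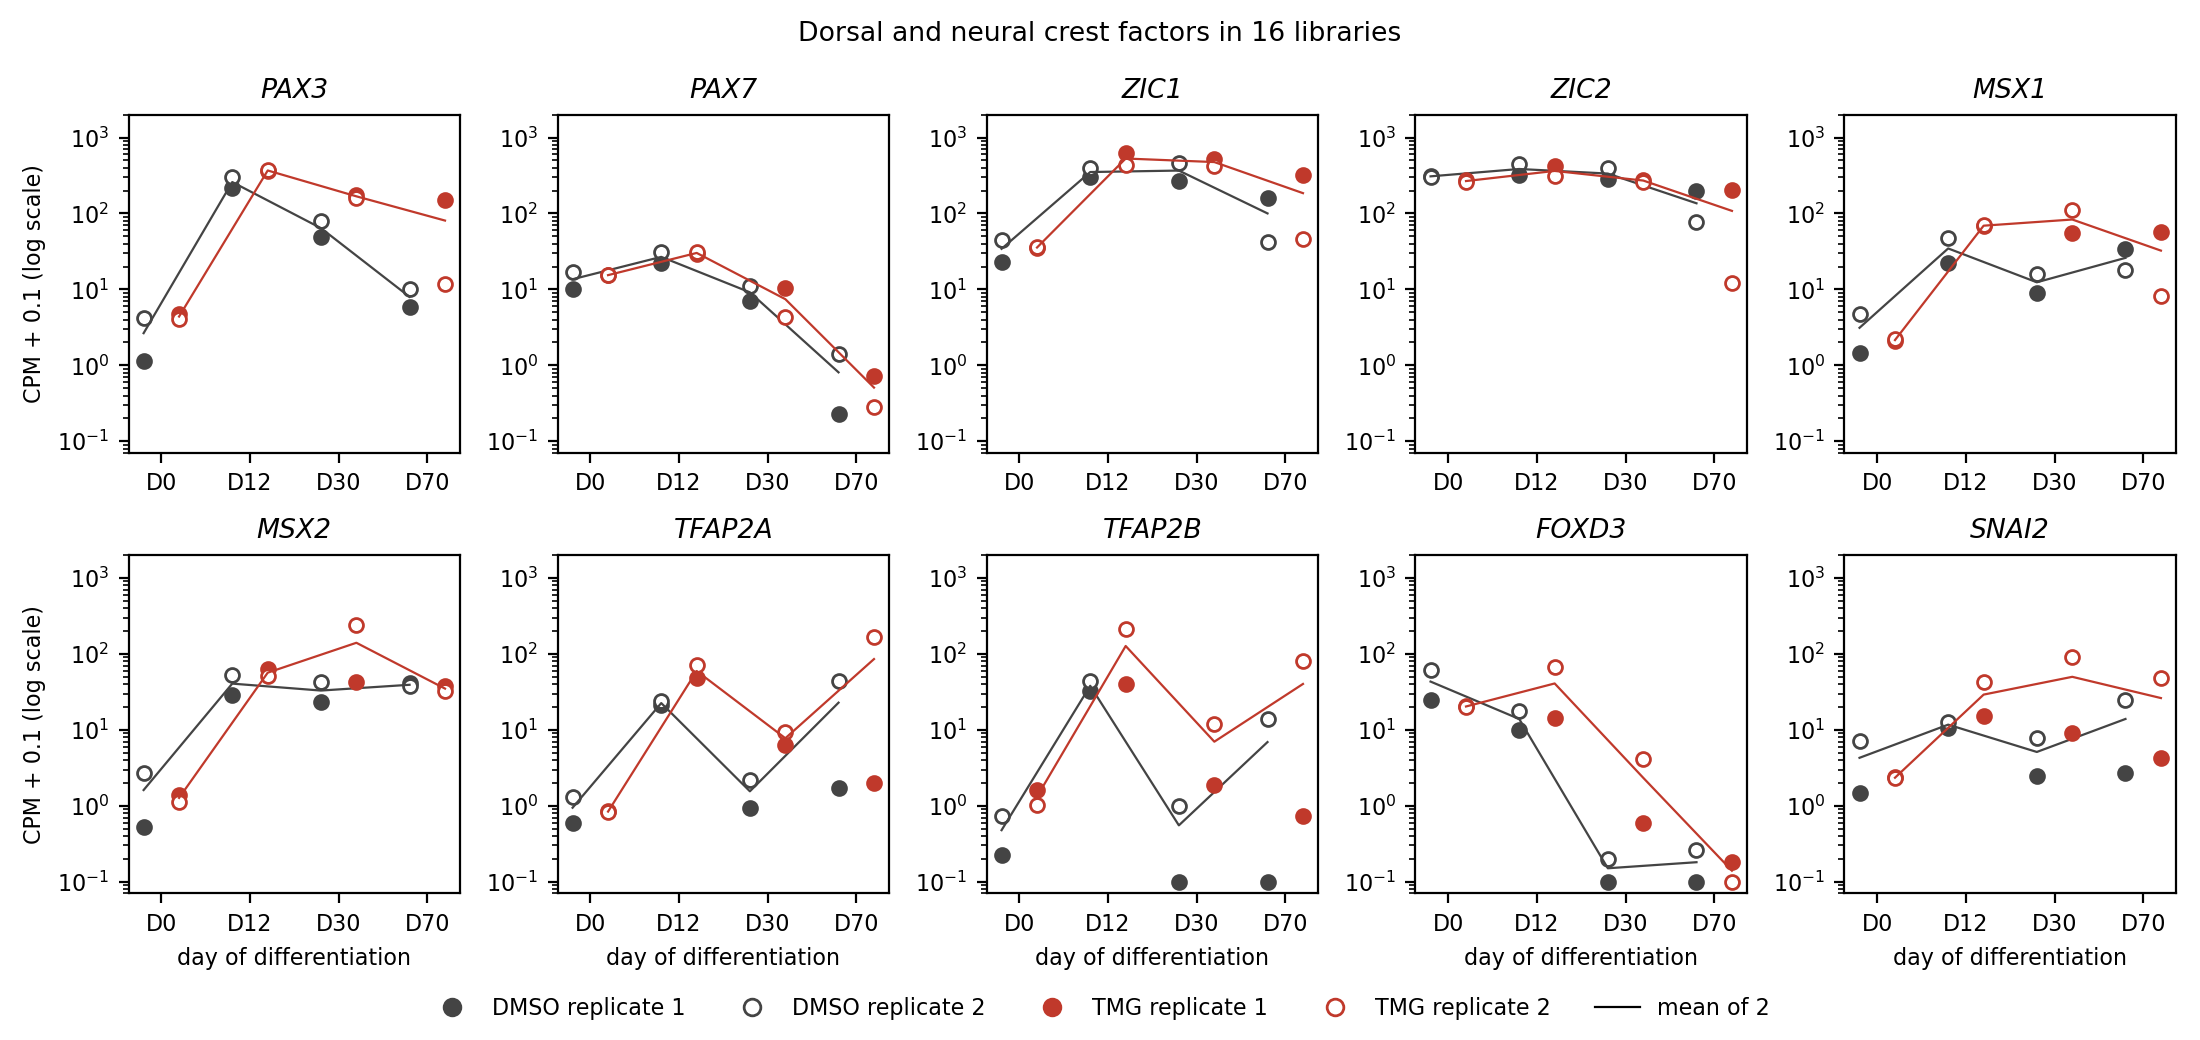
Level of each of the 10 genes in each of the 16 libraries (CPM plus 0.1 on a log axis, by day; filled points replicate 1, open points replicate 2, lines the mean of 2). PAX3, ZIC1, MSX1 and MSX2 are above all D0 libraries in every D12 library, TFAP2A and TFAP2B are high on D12 and in the open points of D70, and FOXD3 falls to at most 3.98 CPM from D30 on.

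MSX1 and MSX2, homeobox factors induced by BMP signals at the border and in the roof plate, rose together by D12. MSX1 stood at 1.36 and 4.69 CPM in the DMSO libraries of D0, 22.1 and 46.8 at D12, 8.83 and 15.7 at D30 and 33.7 and 18 on D70. MSX2 stood at 0.433 and 2.59 CPM on D0, 28.9 and 52.1 at D12, 23 and 42.5 at D30 and 40.8 and 37.4 on D70. Neither overlapped its D0 range at any later stage. From D0 to D12 MSX1 rose by 3.52 ± 0.88 and MSX2 by 4.76 ± 0.88 (edgeR adjusted p = 0.0224 and 0.00639). On D70 MSX1 was still 3.10 ± 0.87 and MSX2 4.71 ± 0.88 above D0 (edgeR adjusted p = 0.0217 and 0.00318), and MSX2 was 4.46 ± 0.87 above D0 on D30 (0.0039). MSX2 kept its calls without any single DMSO library, with estimates on D12 from 4.00 without D0 replicate 1 to 6.52 without D0 replicate 2. MSX1 on D12 lost its call without D0 replicate 1 (2.91, edgeR adjusted p = 0.143), D12 replicate 1 (3.99, 0.0507) or D12 replicate 2 (2.87, 0.109), and with no filter (0.0798). Its call on D70 was lost without D0 replicate 1 (2.49, edgeR adjusted p = 0.138) or D70 replicate 1 (2.58, 0.0924), and with no filter (0.0787).

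In TMG, MSX1 went from 1.99 and 2.11 CPM on D0 to 68.2 and 69.5 at D12, a rise of 5.06 ± 0.94 (edgeR adjusted p = 0.00635). MSX2 went from 1.3 and 1.03 CPM to 62.3 and 50.7, a rise of 5.60 ± 0.91 (edgeR adjusted p = 0.00368). For both genes the treated replicates of D0 lay close together, as did those of D12. The call of MSX1 was lost without D0 TMG replicate 1 (5.02, edgeR adjusted p = 0.0708) or replicate 2 (5.10, 0.0701), and that of MSX2 without D0 TMG replicate 2 (5.43, 0.0521).

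TFAP2A and TFAP2B, AP-2 factors of the border, crest and surface ectoderm, were near 0 on D0 and higher in every D12 library. In DMSO, TFAP2A was at 0.494 and 1.19 CPM on D0, 21 and 23.8 at D12, 0.846 and 2.06 at D30 and 1.61 and 43.7 on D70. TFAP2B was at 0.124 and 0.629 CPM on D0, 32.3 and 43.4 at D12, 0 and 0.903 at D30 and 0 and 13.6 on D70. The D12 libraries stood above all D0 and D30 libraries for both genes, while on D70 replicate 1 was near 0 and replicate 2 was not. The estimates from D0 to D12 were 4.74 ± 1.77 for TFAP2A and 6.66 ± 2.46 for TFAP2B and did not pass (edgeR adjusted p = 0.0919 and 0.0882), whereas DESeq2 called both (0.0124 and 0.0209), as it did 9.64% of all genes. In TMG, TFAP2A stood at 0.755 and 0.721 CPM on D0 and 47.9 and 70.9 at D12, a rise of 6.32 ± 1.87 (edgeR adjusted p = 0.0426). Its call was lost without any 1 of the 4 libraries compared (edgeR adjusted p from 0.107 to 0.227) and with no filter (0.141). TFAP2B stood at 1.51 and 0.927 CPM on D0 and 39.6 and 215 on D12 in TMG (6.72 ± 2.31, edgeR adjusted p = 0.0717; DESeq2 0.0178).

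FOXD3, a forkhead factor of pluripotent cells and the early crest, was present in undifferentiated cells and was lost by D30. The DMSO libraries held 401 and 879 counts on D0 (24.8 and 61.5 CPM), 200 and 324 counts at D12 (9.83 and 17.7 CPM), 0 and 2 counts at D30 and 0 and 2 counts on D70. Neither of the later stages overlapped D0 or D12. With 2 counts over both libraries of D30, the level on D12 was 231 times that on D30, with an exact 95% interval of 63.6 to 1912 that covers counting error only. For D0 against D30 the ratio was 632 (175 to 5226) and for D0 against D70 it was 618 (171 to 5106). By edgeR, FOXD3 fell from D12 to D30 (adjusted p = 0.0198), from D0 to D30 (0.00116), from D0 to D70 (0.00127) and from D12 to D70 (0.0103). The call from D12 to D30 was lost without any 1 of the 4 libraries (edgeR adjusted p from 0.0861 to 0.171) and with no filter (0.0577), and that from D12 to D70 without D70 replicate 1 (0.0611).

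SNAI2, a zinc finger repressor that acts when crest cells leave the neural tube, passed in no step by edgeR. Its DMSO libraries held 1.36 and 6.99 CPM on D0, 10.6 and 12.7 at D12, 2.35 and 7.68 at D30 and 2.64 and 24.9 on D70. The D12 libraries were above those of D0 and D30, and the D70 libraries lay on both sides of them. In TMG it stood at 2.26 and 2.22 CPM on D0 and 15.2 and 42.7 at D12 (3.69 ± 1.49, edgeR adjusted p = 0.116), which DESeq2 called (adjusted p = 0.0153), as it did 10.3% of all genes higher.

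Over the other steps in DMSO, from D0 to D30 the members called were PAX3 (4.66 ± 1.00, edgeR adjusted p = 0.00636), ZIC1 and MSX2, which rose, and FOXD3, which fell, where 14.0% of all genes were called higher and 16.7% lower. DESeq2 also called MSX1 higher in that step (2.05, adjusted p = 0.0305; edgeR 0.0897), as it did 17.2% of all genes. The call of PAX3 on D30 was lost without D0 replicate 1 (4.03, edgeR adjusted p = 0.054). From D0 to D70 MSX1 and MSX2 rose and PAX7 and FOXD3 fell, where 15.0% of all genes were called higher and 14.7% lower. TFAP2A was also called in that step by DESeq2 (4.76, adjusted p = 0.00738), as were 18.7% of all genes higher. Without D70 replicate 1 its edgeR estimate was 5.70. From D12 to D30 FOXD3 alone was called, against 1.91% of all genes higher and 1.69% lower, and by DESeq2 also TFAP2B (-6.34, adjusted p = 0.0447; 4.39% of all genes called lower). From D12 to D70 PAX3, PAX7 and FOXD3 fell, where 4.66% of all genes were called lower. From D30 to D70 no member was called by edgeR, where 0.305% of all genes were called higher and 0.0784% lower. At an unadjusted p under 0.05 that last step had 3 members lower (PAX3, PAX7 and ZIC1) and TFAP2A higher, where 7.58% of all genes were lower and 10.8% higher. DESeq2 called PAX3 and PAX7 lower, as it did 2.61% of all genes. Without D70 replicate 2, the edgeR estimate of PAX7 was -6.09. In TMG, 0 members were called from D12 to D30 or from D30 to D70, where edgeR called 0.511% and 0.00825% of all genes. DESeq2 called PAX7 and FOXD3 lower in each of these 2 steps, where it called 1.67% and 0.330% of all genes lower. The later step turned on D70 TMG replicate 1, without which edgeR called 6 members: PAX3, PAX7, ZIC1, ZIC2 and MSX1 fell, by -3.88, -5.25, -3.36, -4.50 and -3.36, and TFAP2A rose by 4.45 (adjusted p from 0.00316 to 0.0462). In that fit edgeR called 3.21% of all genes lower and 3.08% higher.

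TMG against DMSO gave no member past a false discovery rate of 5% at any stage by edgeR, and 0% of all genes tested were called at each stage. At an unadjusted p under 0.05, 4 members were higher in TMG at D30, where 7.10% of all genes were higher and 4.89% lower. At D70 it was 1 member, where 2.61% of all genes were higher and 2.88% lower. No member reached that threshold at D12, where 1.54% of all genes were higher and 0.936% lower, or at D0, where the shares were 0.367% and 0.895%. DESeq2 at a false discovery rate of 5% called 2 members higher at D30, where it called 1.56% of all genes higher, and 1 at D70 (0.120%).

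On D30 the 4 members were MSX1, MSX2, FOXD3 and SNAI2. MSX1 was at 8.83 and 15.7 CPM in DMSO and 55.6 and 111 in TMG, so that both treated libraries lay above both controls. The difference was 2.75 ± 0.83 (log2, TMG over DMSO; unadjusted p = 0.00707, edgeR adjusted p = 0.256; DESeq2 adjusted p = 0.0209). MSX2 was at 23 and 42.5 CPM in DMSO and 42.5 and 238 in TMG, a difference of 2.10 ± 0.75 (edgeR adjusted p = 0.31; DESeq2 0.0903) that rests on the second treated library. FOXD3 had 0 and 2 counts in DMSO and 5 and 42 in TMG, a ratio of 33.7 with an exact 95% counting interval of 8.82 to 286 (edgeR adjusted p = 0.248; DESeq2 0.0183). SNAI2 was at 2.35 and 7.68 CPM in DMSO and 9.03 and 90.6 in TMG (3.29 ± 1.44, edgeR adjusted p = 0.403; DESeq2 0.107).

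The size of 3 of these 4 differences turned on replicate 2 of TMG, the library with the high mesenchyme sum. Without it MSX2 differed by 0.37, SNAI2 by 0.83 and FOXD3 by 2.78, and MSX1 by 2.17. MSX1 was then the 1 member at an unadjusted p under 0.05 (edgeR adjusted p = 1). Without D30 DMSO replicate 1, FOXD3 was the 1 member at that threshold (4.37, edgeR adjusted p = 0.8). At an unadjusted p under 0.05, 3 of the 8 mesenchyme genes (PDGFRA, PRRX1 and DCN) were also higher on D30 in TMG. So were 3 of 5 stem cell markers (POU5F1, NANOG and TDGF1), at a threshold that 7.10% of all genes passed higher. The 3 mesenchyme genes were highest in TMG replicate 2. PDGFRA was at 48.9 and 25.7 CPM in DMSO and 54.8 and 262 in TMG. PRRX1 was at 5.54 and 20.3 in DMSO and 18.5 and 493 in TMG, and DCN at 1.03 and 10.1 against 22.9 and 382. POU5F1, the defining pluripotency gene, was at 0.094 and 0.401 CPM in DMSO and 9.13 and 5.49 in TMG (edgeR adjusted p = 0.0868), against 824 to 893 on D0. The other 2 stem cell markers were not higher in both treated libraries: LIN28A was at 20.6 and 12.2 CPM in DMSO and 27.1 and 5.96 in TMG (0.02 ± 0.51, edgeR adjusted p = 0.998), and DPPA4 differed by -0.37 ± 0.42 (0.794). FOXD3 is itself expressed in pluripotent cells, and the part of the 3 higher markers in its level was not tested.

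The other members on D30 gave smaller or less certain differences. PAX3 was at 176 and 159 CPM in TMG, above its 48.4 and 79.6 in DMSO (1.39 ± 0.85, edgeR adjusted p = 0.559), and without TMG replicate 2 the difference was 1.45. TFAP2A was at 6.12 and 9.18 CPM in TMG against 0.846 and 2.06 (2.34 ± 1.62, edgeR adjusted p = 0.615), and TFAP2B at 1.75 and 12 against 0 and 0.903 (3.68 ± 2.24, 0.554). The TFAP2B difference was 1.70 without TMG replicate 2 and 9.67 without DMSO replicate 2, which leaves a control of 0 CPM. Both treated libraries were above both controls for 7 members on D30 and below them for 1, ZIC2, where 23.1% and 21.0% of all genes were so placed. The 7 were PAX3, MSX1, MSX2, TFAP2A, TFAP2B, FOXD3 and SNAI2. For MSX2 this rests on unrounded values, since its lower treated and higher control library were both at 42.5 CPM and 0.0015 apart in log2 CPM, no more than a tie. ZIC2 was at 279 and 263 CPM in TMG against 280 and 391, ZIC1 at 523 and 427 against 271 and 462, and PAX7 changed by -0.31 ± 0.67.

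**Figure D2:**
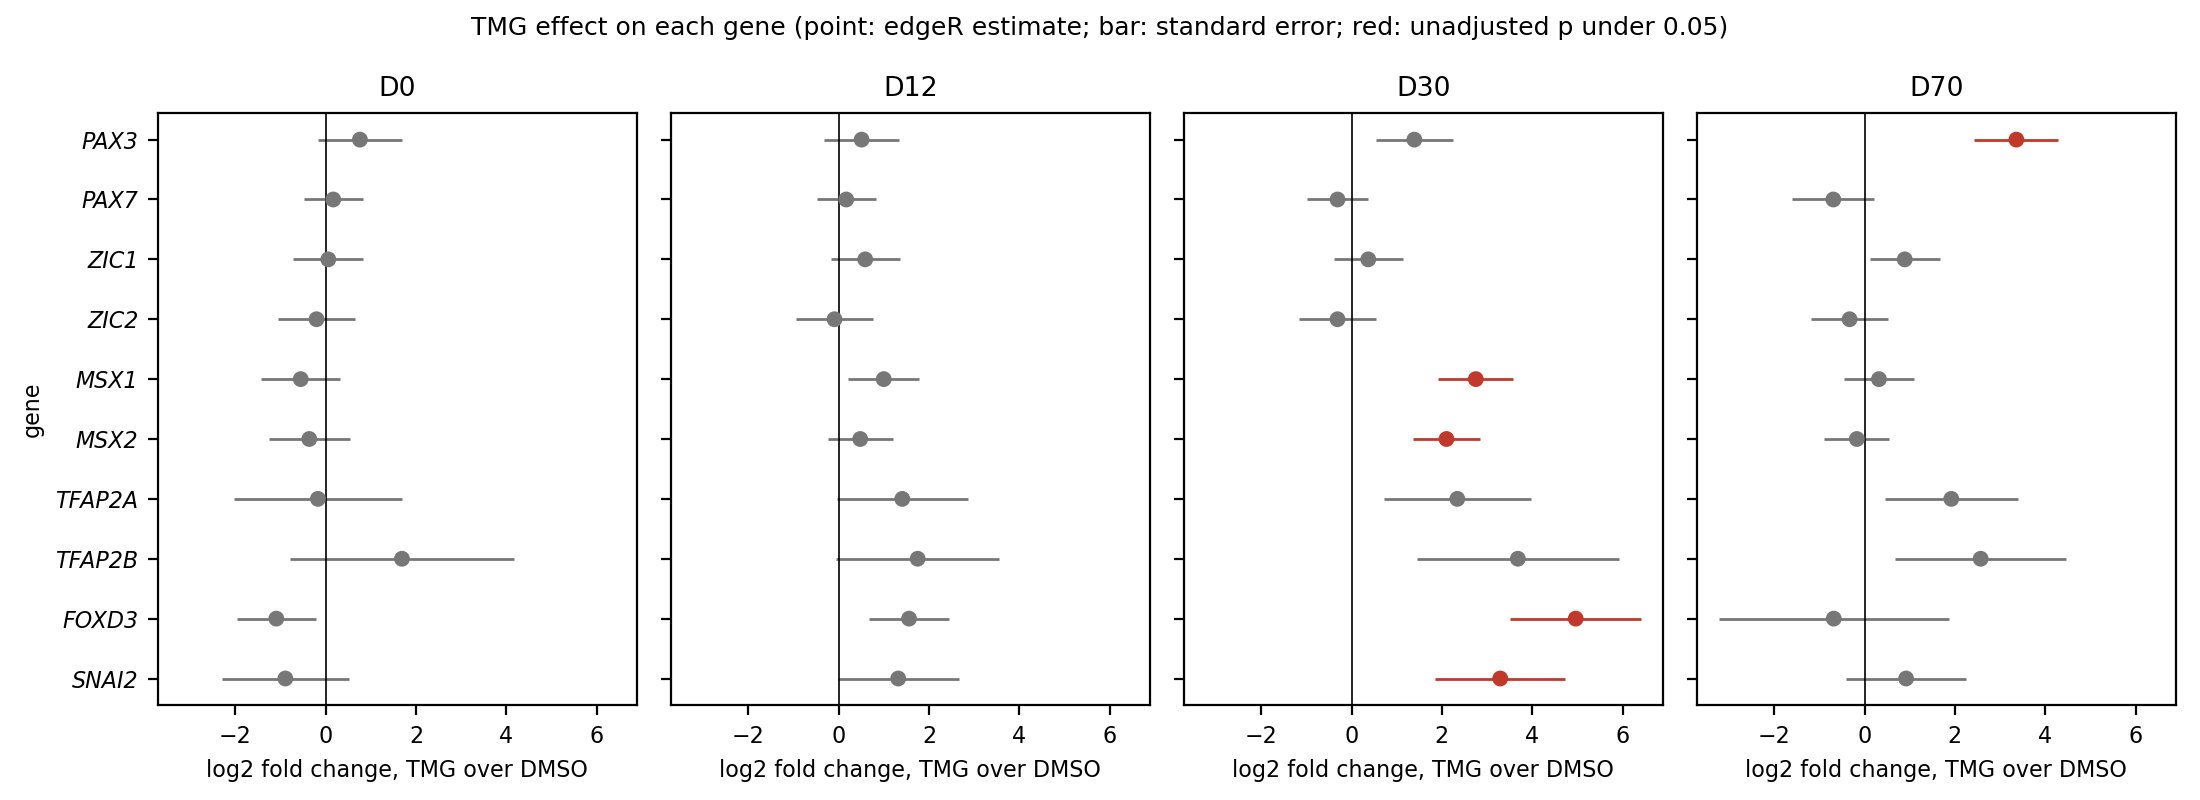
Log2 fold change of TMG over DMSO for each gene on each day (points edgeR estimates, bars standard errors, red where the unadjusted p is under 0.05). The red points are MSX1, MSX2, FOXD3 and SNAI2 at D30 and PAX3 on D70, and none passed a false discovery rate of 5%.

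On D12 the treated libraries of PAX3, ZIC1, MSX1, TFAP2A and SNAI2 were both above both controls and no member was below, where 17.8% of all genes lay above and 16.5% below. None of these differences passed: 1.41 ± 1.45 for TFAP2A, 1.32 ± 1.34 for SNAI2, 1.00 ± 0.78 for MSX1, 0.59 ± 0.76 for ZIC1 and 0.51 ± 0.83 for PAX3 (edgeR adjusted p = 1 for each). The difference largest against its error was that of FOXD3, at 1.56 ± 0.89 (unadjusted p = 0.106, edgeR adjusted p = 1), and it turned on TMG replicate 2, without which it was 0.04. Without that library TFAP2B differed by 0.06 and SNAI2 by 0.38. TFAP2B (39.6 and 215 CPM in TMG), FOXD3 (14.2 and 67.2) and SNAI2 (15.2 and 42.7) were highest in TMG replicate 2, where SOX10 was also highest. On D0 TFAP2B lay above and ZIC2 and FOXD3 below the controls in both treated libraries, where 19.7% and 16.9% of all genes did so, and no member reached an unadjusted p of 0.05. FOXD3 on D0 was at 20.4 and 20.1 CPM in TMG against 24.8 and 61.5 (-1.09 ± 0.88).

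On D70 PAX3 was the 1 member with an unadjusted p under 0.05. It was at 5.85 and 9.9 CPM in DMSO and 150 and 11.5 in TMG (3.36 ± 0.93, unadjusted p = 0.00418, edgeR adjusted p = 0.858; DESeq2 adjusted p = 0.0218). The difference rests on TMG replicate 1: without that library it was 0.54, and without replicate 2 it was 4.26 (edgeR adjusted p = 0.635 and 0.0653). PAX3 lay above the controls in both treated libraries and MSX2 below them, where 9.77% and 12.4% of all genes did so, and MSX2 differed by -0.17 ± 0.72. MSX2 was at 37.4 CPM in both TMG replicate 1 and DMSO replicate 2, a tie at these digits.

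On D70 several members differed between the replicates of an arm. TFAP2A was at 1.61 and 1.9 CPM in the replicate 1 libraries of DMSO and TMG and at 43.7 and 169 in the replicate 2 libraries. TFAP2B was at 0 and 0.632 against 13.6 and 79.6, and SNAI2 at 2.64 and 4.19 against 24.9 and 48. These 3 genes were thus highest of their stage in the replicate 2 libraries, where KRT5 and TP63 were also highest. ZIC1 (158 and 324 CPM in replicate 1, 42.3 and 46.5 in replicate 2), ZIC2 (195 and 205 against 76.8 and 12) and MSX1 (33.7 and 56.4 against 18 and 8.14) went the other way. In log2 CPM, replicate 2 was above replicate 1 in both arms for 3 members at D70 and below it for 4, where 34.6% and 34.9% of all genes were so placed. At D30 these counts were 6 and 0 (29.6% and 29.0% of all genes), at D12 7 and 0 (30.3% and 33.9%), and at D0 3 and 1 (24.9% and 25.2%). Leaving out TMG replicate 2 turned the D70 difference of TFAP2A from 1.92 to -3.56, of TFAP2B from 2.57 to -3.38 and of SNAI2 from 0.92 to -1.70. Leaving out TMG replicate 1 took ZIC2 from -0.33 to -3.51, with only TMG replicate 2, which stood apart, left in the treated group.

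**Figure D3:**
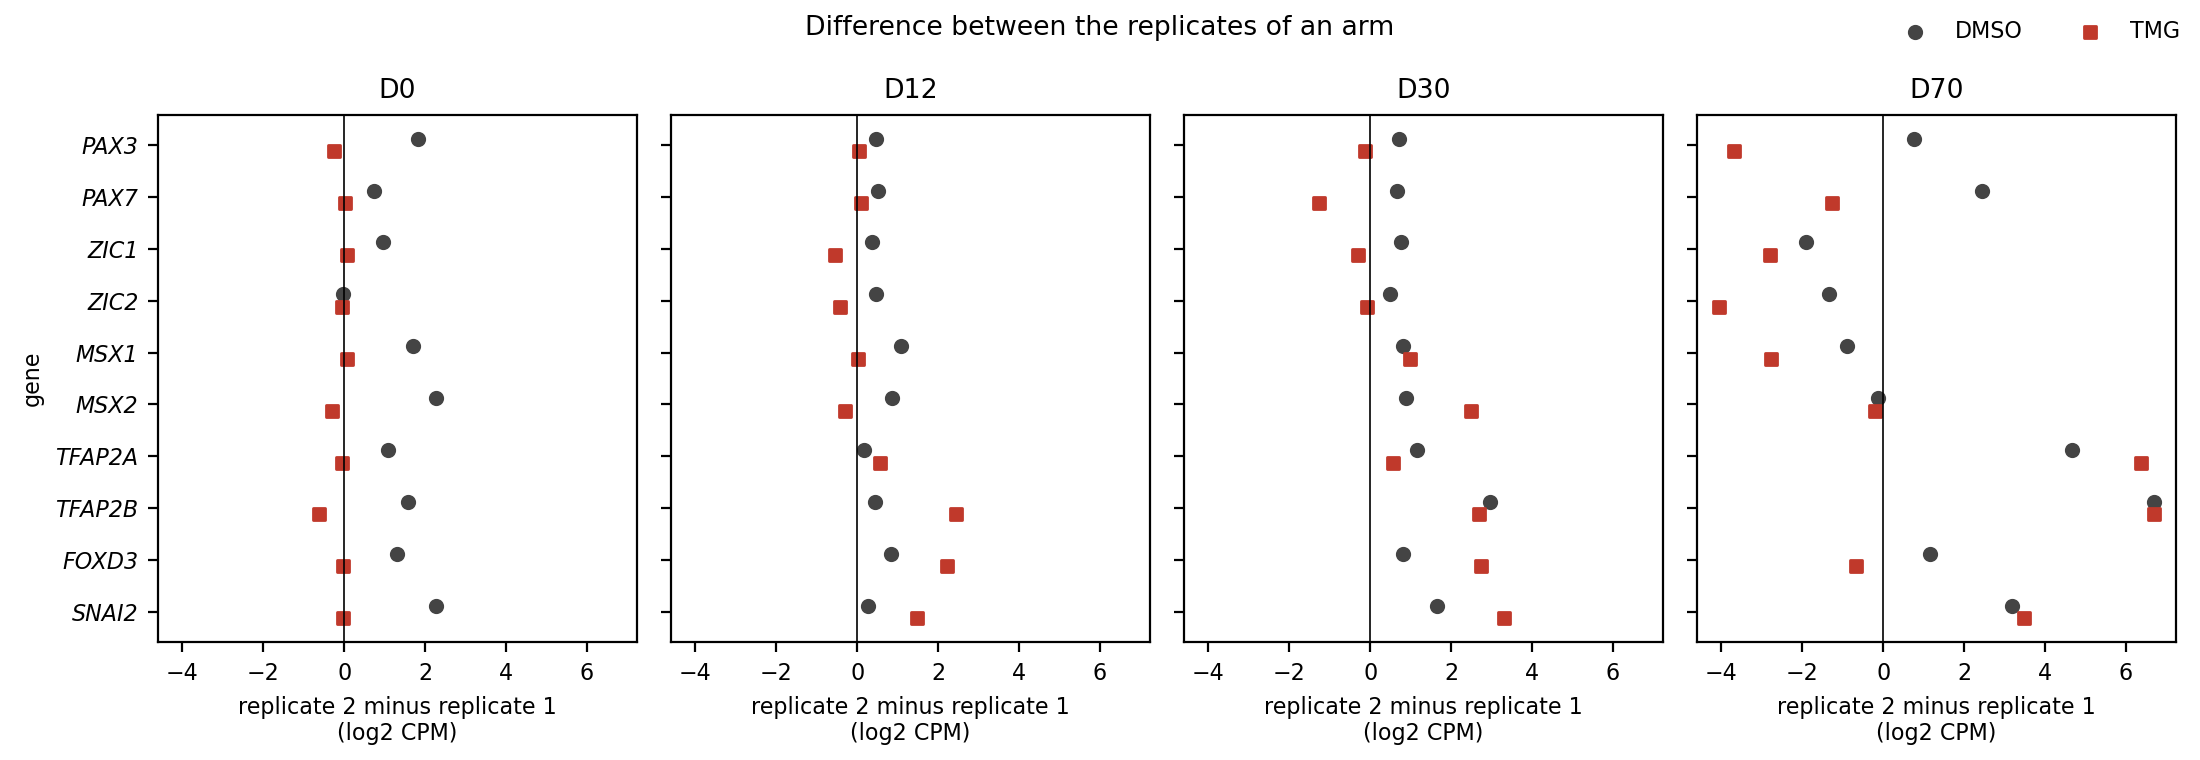
Difference between replicate 2 and replicate 1 in log2 CPM (prior count 2) for each gene on each day, circles for DMSO and squares for TMG. On D70 TFAP2A, TFAP2B and SNAI2 lie far to the right in both arms, at 3.18 to 6.70, while ZIC1, ZIC2 and MSX1 lie to the left in both, and on D0 the TMG replicates differ by at most 0.63.

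The TMG effect on a member was also compared between stages. From D12 to D30 and from D30 to D70 no member passed by edgeR or DESeq2, and edgeR called 0% of all genes in both. Without D70 TMG replicate 1, which leaves 1 treated library on D70, the TMG effect on ZIC2 changed by -3.20 from D30 to D70. The smallest unadjusted p-values were 0.0508 for MSX2 and 0.0528 for MSX1 from D30 to D70, where the effect dropped by 2.26 ± 1.03 and 2.43 ± 1.12 (edgeR adjusted p = 1), and 0.08 for FOXD3 from D12 to D30 (3.40 ± 1.76, edgeR adjusted p = 1).

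The treated and control courses of 3 members are given side by side, and none of their differences passed. From D12 to D30, MSX1 went from 34.5 ± 17.5 to 12.3 ± 4.86 CPM in DMSO and from 68.9 ± 0.922 to 83.1 ± 38.9 in TMG (mean ± SD of 2 libraries). Neither change of MSX1 passed (edgeR adjusted p = 0.324 in DMSO and 0.91 in TMG), nor did their difference (1.75 ± 1.11, unadjusted p = 0.142, edgeR adjusted p = 1). SNAI2 went from 11.6 ± 1.51 to 5.01 ± 3.77 in DMSO and from 29 ± 19.5 to 49.8 ± 57.7 in TMG, where again neither change passed (edgeR adjusted p = 0.669 and 0.834), nor did their difference (1.97 ± 1.89, unadjusted p = 0.319, edgeR adjusted p = 1). PAX3 went from 259 ± 58.5 to 64 ± 22.1 in DMSO and from 368 ± 9.42 to 168 ± 11.4 in TMG, and neither change passed (edgeR adjusted p = 0.218 and 0.57), nor did their difference (0.88 ± 1.18, unadjusted p = 0.474, edgeR adjusted p = 1).

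**Figure D4:**
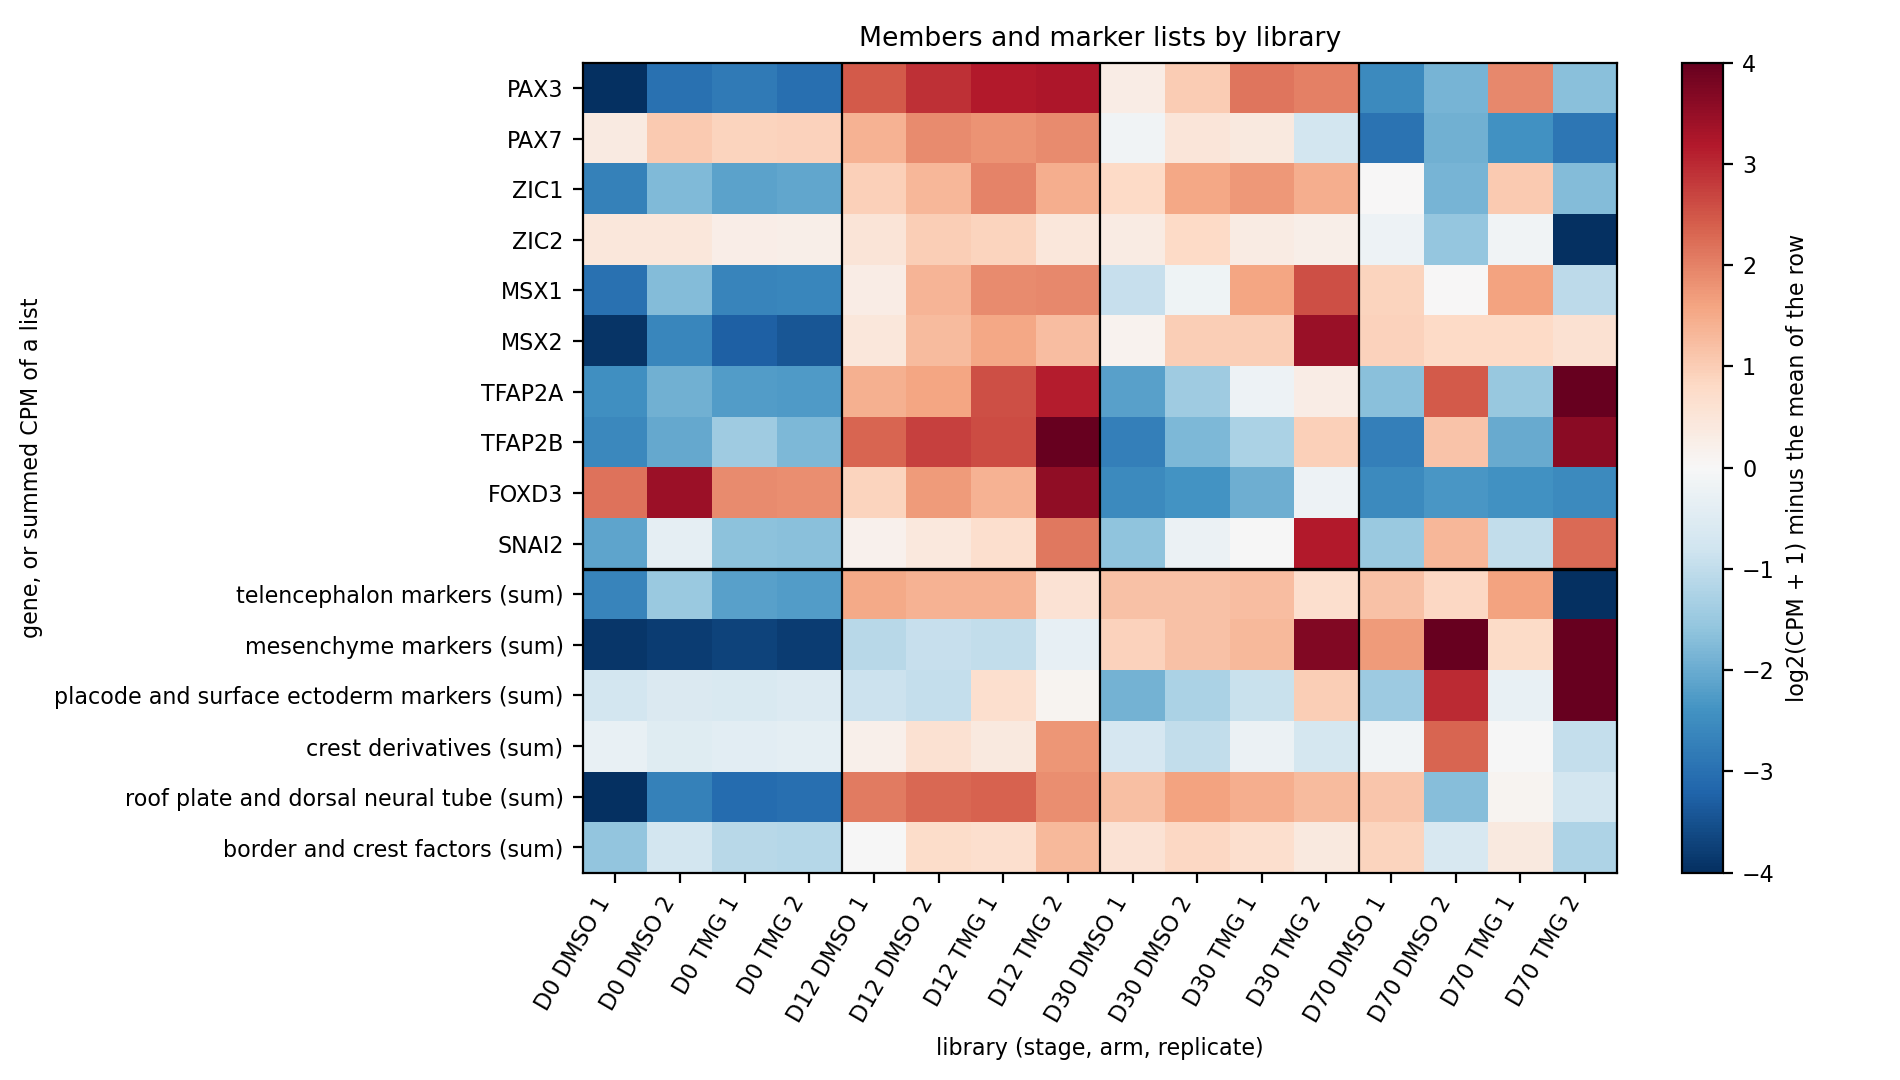
The 10 genes (upper rows) and the summed CPM of 6 lists (lower rows) in the 16 libraries, as log2(CPM + 1) minus the mean of the row, with blue below and red above it (the scale stops at 4 on either side). Replicate 2 of TMG on D30 and replicate 2 of both arms on D70 share high mesenchyme sums with high SNAI2, and replicate 2 of D70 adds surface ectoderm genes, TFAP2A and TFAP2B.

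The genes around the members moved in part with them. Of 11 roof plate and dorsal neural tube genes, 7 rose and 1 fell from D0 to D12 in DMSO, with a median log2 fold change of 4.48 against 0.00 over all genes tested. LMX1A (10.43 ± 2.33), the WNT ligand gene WNT1 (9.42 ± 1.64) and GDF7, a BMP-family ligand of the roof plate (8.76 ± 0.67), changed most, with edgeR adjusted p of 0.0143, 0.00492 and 0.000113. Of 20 other border and crest factors, 4 rose and 1 fell. NR2F2 (5.94 ± 0.92, edgeR adjusted p = 0.00302) and NR2F1 (4.32 ± 1.02, 0.0181) rose, as did ZIC4 and the crest gene SOX10, while GBX2 fell (-7.02 ± 0.93, 0.0016). Of 14 crest derivative genes tested, 2 rose (POU4F1, a sensory neuron factor, and MITF, a melanocyte factor) and PHOX2A fell. Over all genes 6.97% were called higher and 9.71% lower in this step, so that the crest derivatives lay near these shares.

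Of 18 BMP pathway genes, 5 rose by D12 and SMAD7 fell, beside 6.97% of all genes called higher and 9.71% lower. The ligand gene BMP4 rose by 4.33 ± 0.95 and the BMP antagonist GREM1 by 6.18 ± 0.88 (edgeR adjusted p = 0.0132 and 0.00214), and BMP2, BMP7 and the antagonist NOG were the others that rose. Of 8 WNT targets 1 rose, AXIN2 (1.73 ± 0.39, edgeR adjusted p = 0.0153), a share near that of all genes. From D12 to D30 in DMSO, SOX10 (-3.22 ± 0.66), POU4F1, GDF7, BARHL1 and BMP2 fell and BMPR1B rose by edgeR. From D30 to D70 none of these 5 lists had a called gene by edgeR.

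Under TMG none of these lists had a gene called at any stage by edgeR. At an unadjusted p under 0.05 at D30, AXIN2 was at 112 and 208 CPM in TMG against 38.1 and 59.4 (1.72 ± 0.39, edgeR adjusted p = 0.18), and NKD1, another WNT feedback target, was higher too (1.57 ± 0.50, 0.27). LMX1B, BMPR2, SMAD7, POU4F1, ISL1, DLX5 and GBX2 were also higher on D30 at that threshold, and BMPR1B, NR2F1 and EDNRB lower, at a threshold that 7.10% of all genes passed higher and 4.89% lower. DLX5 was present in TMG replicate 2 alone, at 3.5 CPM, and at 0 in the other libraries of D30. The median over the list was 2.22 for the 10 members on D30, 0.61 for the border and crest factors, 0.50 for the crest derivatives, 0.08 for the roof plate list, 0.36 for the BMP pathway and 1.43 for the WNT targets, beside 0.01 over all genes. Lists of other cell types had higher medians than the members on D30, at 3.04 for the 8 mesenchyme markers, 2.76 for the 7 placode and surface ectoderm markers and 2.74 for the 5 stem cell markers. Without D30 TMG replicate 2, the library with the high mesenchyme sum, FOXD3 alone of the members was above 2.22, at 2.78. Then MSX1, TFAP2A, TFAP2B and PAX3 differed by 2.17, 2.01, 1.70 and 1.45. SNAI2, ZIC1, MSX2, PAX7 and ZIC2 differed by 0.83, 0.51, 0.37, 0.19 and -0.27. The medians of the lists were not taken without that library. On D12 AXIN2, ETS1 and LMO4 were among those higher at an unadjusted p under 0.05, AXIN2 by 1.09 ± 0.39, beside 1.54% of all genes higher. ETS1 was at 44.3 and 66.4 CPM in DMSO and 66.1 and 197 in TMG. LMO4 was at 44.7 and 54.1 in DMSO and 56.1 and 131 in TMG, so both were highest in TMG replicate 2, which stood apart. On D70 DLX3, SOX8, POU4F1, ISL1, ATOH1 and FST were higher and NR2F1, PMEL, EDNRB and BMPR1B lower, beside 2.61% of all genes higher and 2.88% lower. ATOH1 (0 and 0.805 CPM in DMSO, 0.079 and 24.1 in TMG) and FST (7.39 and 34.7, 11.3 and 306) were high in TMG replicate 2, which stood apart. SOX8 (6.88 and 13.3, 64.2 and 7.31) was high in TMG replicate 1 alone. For the other genes named, both treated libraries lay beyond both controls.

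Pearson's r of log2 CPM between members over the 16 libraries is given as a description over libraries that share stages. PAX3 and ZIC1 (r = 0.931), MSX1 and MSX2 (0.923), and PAX3 with MSX1 (0.848) went together. TFAP2A and TFAP2B (0.916) went with SNAI2 (0.844 and 0.817). FOXD3 was closest to PAX7 (0.769), and ZIC2 was closest to PAX7 (0.723) as well.

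**Figure D5:**
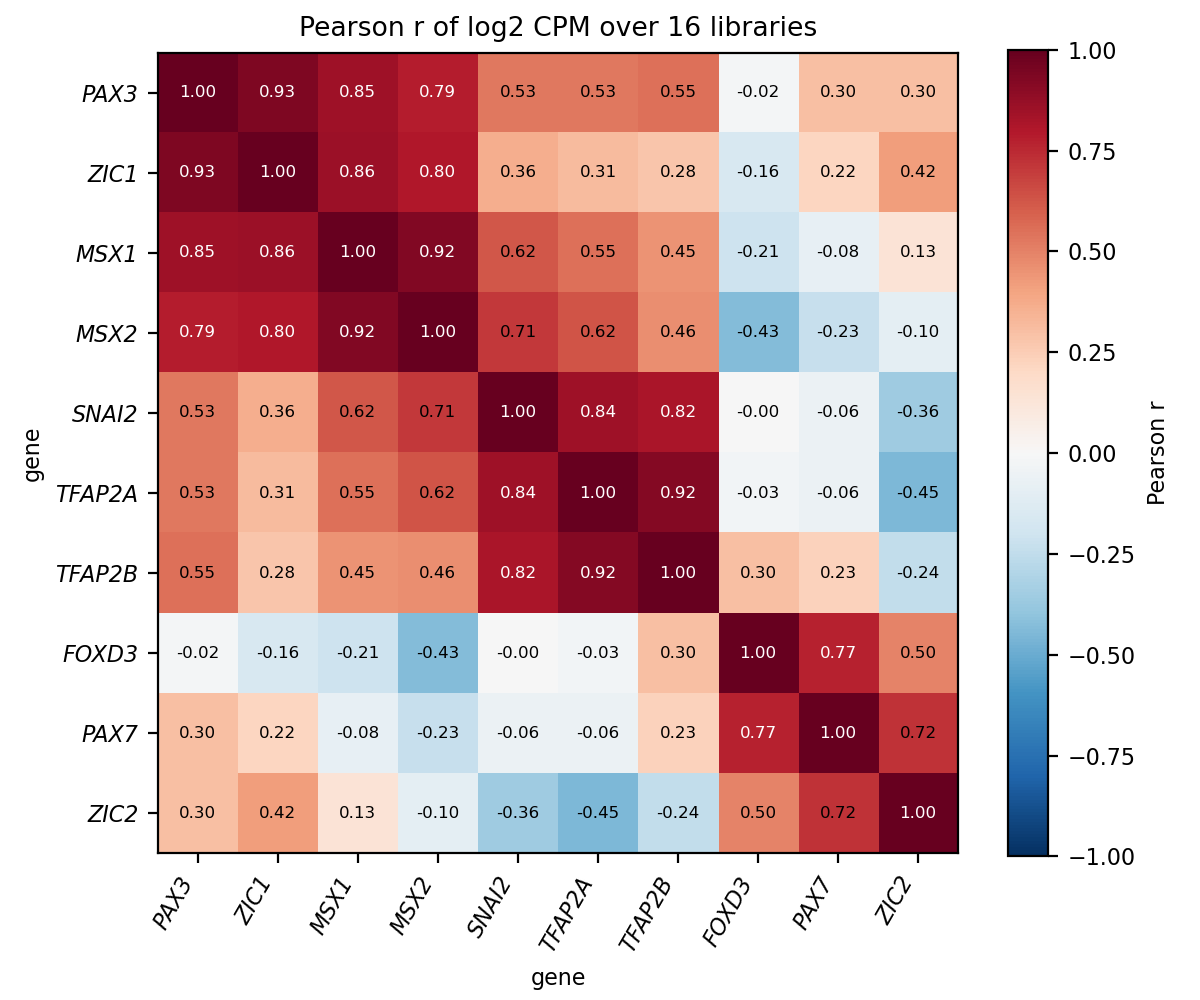
Pearson's r of log2 CPM between each pair of the 10 genes over the 16 libraries, red above and blue below 0. The PAX3, ZIC1, MSX1 and MSX2 block holds values from 0.786 to 0.931, the SNAI2, TFAP2A and TFAP2B block from 0.817 to 0.916, and the lowest value is -0.448 between ZIC2 and TFAP2A.

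Of all named genes outside the 10, those nearest in pattern were taken for each member, up to 3 by r over the 16 libraries. ZIC1 was nearest to ZIC4 (0.990), which overlaps it, then OTX1 (0.963) and TPBG (0.961). ZIC2 was nearest to ZIC5 (0.988), another family member, then GULP1 (0.958) and CACNA1H (0.954). PAX3 was nearest to GAB2 (0.970), ZFHX4 and MLLT3 (0.959 each), PAX7 to HNRNPH3 (0.962), CHD1 and SALL4. MSX1 was nearest to MVB12B (0.970), MDGA2 and CACNG4, and MSX2 to TTC28 (0.973), TNRC18 and RAI1. TFAP2A was nearest to VGLL1 (0.954), WNT6 and NECTIN4, TFAP2B to GDNF (0.942), B3GNT8 and SEMA3F-AS1, and FOXD3 to CCNF (0.958), DBF4B and INCENP. Genes near SNAI2 in pattern were ABCA9 (0.937) and TMEM204 (0.931).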

How the data were processed

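Per the labels and the study's methods, rRNA-depleted RNA of H9 cells was sequenced, reads were aligned with Bowtie2 to hg19, and RSEM v1.2.12 estimated read counts for Ensembl genes of GRCh37.p13. The deposited estimated counts are whole numbers without normalization. Of 57736 genes, 14593 had no count.

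Tests used edgeR 4.0.16 (TMM, filterByExpr with a minimum count of 10 and total of 15, 1 mean for each of 8 groups over 16 libraries, 8 residual degrees of freedom, robust quasi-likelihood F-test). P-values of a comparison were adjusted over its 24249 genes by Benjamini-Hochberg. The fit was also run on counts simulated with the same spread for every gene and no library that stood apart. For TMG at D30, edgeR there recovered 82 of 100 genes changed 4-fold and 100 of 100 changed 16-fold, with 8 false calls. Since 4 of the real libraries stood apart, these numbers do not give the power of the tests here. Depth allows genes of few counts, such as FOXD3 after D12, only wide intervals. Log2 CPM has a prior count of 2. CPM per kb divides by the MANE transcript of GENCODE v44lift37. Alternatives were DESeq2 1.42.0, RLE, no filter, replicate blocks, the 4 libraries of a stage, the treatment labels as arms, each library left out and 4 libraries left out. Members and gene lists were chosen with earlier results of these data known. All 10 members are named; other genes are named if past the false discovery rate and among the 3 largest changes of their list, or at an unadjusted p under 0.05 under TMG; ZIC4, SOX10, BMP7, NOG, SMAD7, KRT5, TP63, PAX6 and OTX2 were named after their values were seen. Some genes are not reported here.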

Additional observations from a re-analysis of the deposited data

Results flagged for a closer look

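FOXD3 lay on opposite sides of its controls under TMG on D0 and D30, with both treated libraries below both controls on D0 (-1.09 on the log2 scale, edgeR adjusted p = 1) and both above them on D30 (4.96, edgeR adjusted p = 0.248). Without D0 DMSO replicate 2, at 61.5 CPM, the D0 difference was -0.29. Neither difference passed, and 16.9% of all genes lay below both controls on D0 and 23.1% above them on D30. The difference between these stages was not tested, and the D30 value compares 5 and 42 counts with 0 and 2.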

How the results depend on the processing

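RLE scaling changed the direction or call of none of the members' fold changes and moved 1 mean level beyond its SD, ZIC2 of D0 in DMSO. With no filter, the count of members called was 2 instead of 4 from D0 to D12 in DMSO, 0 instead of 1 from D12 to D30 in DMSO, and 3 instead of 5 from D0 to D12 in TMG. The share of all genes called with no filter is not given, so a drop over all genes is not set apart. DESeq2 called 2 members under TMG at D30 and 1 at D70, and 2 each in DMSO from D12 to D30 and D30 to D70 and in TMG from D12 to D30 and D30 to D70.

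Leaving out the 4 libraries that stood apart, an alternative chosen after seeing the data, gave 8 members from D0 to D12, 5 from D12 to D30, 6 from D12 to D70 and 2 from D30 to D70 in DMSO, and 2 from D12 to D30 and 1 from D30 to D70 in TMG. Calls rose over all genes too, from 16.7% to 32.4%, 3.60% to 16.8%, 11.1% to 24.9% and 0.384% to 10.1% in these DMSO steps and from 0.511% to 2.13% and 0.00825% to 0.322% in TMG. At an unadjusted p under 0.05 it gave 1 member under TMG at D0 and 1 at D12, beside 2.80% and 5.76% of all genes. It turned the TMG difference of ZIC2 to 0.09 at D12 and 0.08 at D70, of PAX7 to 0.15 at D30 and 2.23 at D70, and of FOXD3 to 3.49 at D70. A group left with 1 library is assumed to vary like the others.

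Over the 24249 genes tested, the difference of replicate 2 from replicate 1 in DMSO was correlated with that in TMG. The correlations were 0.0453 at D0, 0.367 at D12, 0.223 at D30 and 0.607 at D70. The main test did not pair libraries by number, and whether same-numbered libraries shared a culture was not tested. A replicate block over all stages called 1 member from D12 to D30 in TMG and changed no member's call under TMG. Among the members' stage steps with an unadjusted p under 0.05 in the main test, 4 gained a call with this block and 37 were unchanged. The share of all genes called in that blocked fit is not given. A replicate block within each stage, chosen after seeing the data, gave 2 members at an unadjusted p under 0.05 at D12, 6 at D30 and 2 at D70 (6.09%, 20.1% and 12% of all genes), and 3 for each change of the TMG effect between stages (7.72% and 9.58%), and turned MSX1 at D70 to -0.14, and it called 160 genes higher and 73 lower at D30, none of them members. Fits on the 4 libraries of a stage gave 3 such members at D12 and 0 at D70 (6.03% and 0.814% of all genes), and could not give 3 of the member values. With arms from the treatment entries, 4 members were called at D70, among 1628 genes higher and 2235 lower, and at an unadjusted p under 0.05 the counts were 6 at D70 and 2 at D30, beside 31.0% and 10.4% of all genes.

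As each library was left out, members called ranged from 2 to 3 from D0 to D12, 2 to 4 from D0 to D30, 1 to 3 from D12 to D70 and 0 to 1 from D30 to D70 in DMSO, and stood at 0 each time from D12 to D30. In TMG they ranged from 0 to 4 from D0 to D12 and 0 to 6 from D30 to D70. Under TMG they ranged from 0 to 1 at D70, and at an unadjusted p under 0.05 from 0 to 1 at D12, 1 to 4 at D30 and 2 to 4 at D70. The change of the TMG effect from D30 to D70 ranged from 0 to 1. TMG differences that changed sign ranged at D0 from -0.12 to 0.59 for PAX7, -0.32 to 0.63 for ZIC1, -1.16 to 0.60 for MSX1, -1.12 to 1.41 for MSX2, -0.66 to 0.57 for TFAP2A and -1.61 to 0.72 for SNAI2. At D12 they ranged from -0.07 to 0.45 for PAX7 and -0.32 to 0.17 for ZIC2, and at D30 from -1.09 to 0.19 for PAX7. At D70 they ranged from -1.83 to 1.65 for PAX7, -1.12 to 2.14 for ZIC1, -3.51 to 0.59 for ZIC2, -1.68 to 1.13 for MSX1, -3.56 to 5.76 for TFAP2A, -3.38 to 12.28 for TFAP2B, -3.29 to 2.62 for FOXD3 and -1.70 to 3.33 for SNAI2. The counts of members called are given without the shares of all genes called in the same fits, so they are no result about the members. The causes of these changes were not tested.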
